A study of Homo sapiens with 34 samples.

Results

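Human pluripotent stem cells given activin on day 1 of differentiation were compared, at the end of day 2, with cells whose day 1 medium lacked it. The comparison used 12 of the 34 RNA sequencing libraries of the series, the 6 collected at 48 h after day 1 in MPS (mid primitive streak) medium and the 6 collected at 48 h after day 1 in PPS (posterior primitive streak) medium. Libraries were assigned to groups by their labels. The cells were wild type ESI017, an established human embryonic stem cell line, and every condition had 2 replicates. On day 1 all of these cultures received 40 ng/ml BMP4, 6 µM CHIR99021, a GSK3 inhibitor that activates WNT signaling, and 20 ng/ml bFGF, and the MPS cultures also received 30 ng/ml activin A. On day 2 each was moved to 1 of 3 media for a further 24 h. DE(b) (definitive endoderm) medium held 100 ng/ml activin A and 250 nM LDN-193189, a BMP receptor inhibitor, so that in DE(b) both groups received activin on day 2. PM (paraxial mesoderm) medium held 250 nM LDN-193189, 1 µM A-8301, which inhibits the receptors for activin, Nodal and TGFβ, and 20 ng/ml bFGF, and the sources differ on whether it also held CHIR99021. LM (lateral mesoderm) medium held 30 ng/ml BMP4, 1 µM A-8301 and 4 µM IWP2, which blocks WNT secretion. MPS-PM thus denotes cells given MPS medium on day 1 and PM medium on day 2. The MPS and PPS libraries of 24 h (2 each) gave the difference at the end of day 1, and 2 control libraries of undifferentiated cells in mTeSR PLUS, labelled 48 h, gave the starting levels.

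Activin and Nodal bind activin receptors that phosphorylate SMAD2 and SMAD3, and in the gastrula a gradient of this signal, highest anteriorly in the primitive streak, favors endoderm over posterior mesoderm. Cells that pass through the streak exchange E-cadherin for N-cadherin and lose epithelial junctions, a change driven by repressors such as SNAI1, ZEB1 and ZEB2. HOX genes are turned on in the order of their position in each cluster and, with the CDX factors, mark increasingly posterior positions, whereas OTX2 and the ZIC genes mark the epiblast and anterior tissue.

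The 12 libraries held 15522780 to 23138266 estimated counts each (median 18117142), and levels are given as CPM (the count in every 1000000 of the library total), with replicate 1 before replicate 2. Mitochondrial genes took 4.28 to 8.20% of the counts. For each medium, a marker of its name was highest there. SOX17 (endoderm) was at 113 to 553 CPM in the 4 DE(b) libraries and at most 0.0547 CPM in the other 8. TBX6 (presomitic mesoderm) was at 153 to 195 CPM in PM against 8.66 to 52.8 CPM in DE(b) and 1.66 to 3.57 CPM in LM. HAND1 (lateral mesoderm and extra-embryonic tissue) was at 1789.5 to 2127 CPM in LM and at most 100.0 CPM elsewhere. In bulk RNA, fewer cells of a type and less RNA per cell cannot be told apart, and the p-values rest on the spread among these cultures only.

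Levels at 48 h differed between the day 1 media on average over the 3 day 2 media, called the shared effect here. The fit did not test whether a difference was present in each medium. Its residual spread held differences of the day 1 effect between media as well as differences between replicates. It thus favored effects that were alike in the 3 media. With the day 2 medium as a block, 556 of 17895 genes (3.11%) had an adjusted p under 0.05 (edgeR quasi-likelihood test, Benjamini-Hochberg adjustment over all genes), of which 208 (1.16%) were higher and 348 (1.94%) lower after MPS. An unadjusted p under 0.05 was reached by 3159 genes. Fold changes are log2 of MPS over PPS, so a negative value is a lower level after MPS, and the median over all genes was -0.0057. Of the 348 lower genes 216 differed by at least 2-fold, against 67 of the 208 higher genes. No single medium gave a call for 101 of the 348 lower and 98 of the 208 higher genes. Both MPS libraries lay on the same side of both PPS libraries in each medium for 1030 genes (5.76%), 571 (3.19%) lower and 459 (2.56%) higher, and 449 genes (2.51%) were also called, 282 (1.58%) lower and 167 (0.933%) higher. The count fell to 337 without MPS-DE(b) replicate 1, 314 without PPS-DE(b) replicate 1, 347 without PPS-DE(b) replicate 2, 338 without MPS-LM replicate 1 and 317 without PPS-LM replicate 2, and the 449 fell to 283 without PPS-DE(b) replicate 1 and 287 without PPS-LM replicate 2. Each of the 556 genes kept its direction in all 20 refits. The refits reused these libraries, whole or in part, for genes already called in them, so this is no independent check of direction.

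Within single media more genes were called in DE(b) and LM than in PM. With 1 mean per condition fitted over the 34 libraries, 1062 genes (5.93%) were called in DE(b), 1002 (5.6%) in LM and 184 (1.03%) in PM. These counts depended on single libraries. In DE(b) the count was 551 and 406 without MPS-DE(b) replicates 1 and 2, and 336 and 614 without PPS-DE(b) replicates 1 and 2. In PM it was 79 and 85 without MPS-PM replicates 1 and 2, 81 without PPS-PM replicate 2 and 239 without PPS-PM replicate 1. In LM it was 417 and 663 without MPS-LM replicates 1 and 2, 376 without PPS-LM replicate 2 and 678 without PPS-LM replicate 1. Only 35 genes (0.196%) were called in the same direction in each of the 3 media, 28 (0.156%) lower and 7 (0.0391%) higher after MPS. The 28 lower genes included CDH1, CDH3, EPCAM, ESRP1, GRHL2, CLDN4, RAB25, ST14, AP1M2, LAD1, ITGB8, TGFBI, ADGRG1, ACTA1, CSRP1, TPM1, PRKG1, NEDD9, SEMA6A, CDX4, HOXC8, XKR4, ATP12A, USP18, ARHGAP8 and the keratin pseudogenes KRT16P1 and KRT16P2, whose reads could be shared with their parent gene. The 7 higher genes were ZIC5, FZD8, SEMA5A, APOBEC3C, PAPSS2, TMEM74B and SLC22A3. With the replicate number as a block the effect within PM had 315 genes. The 24 largest differences are drawn with their within-medium values. They were chosen among called genes of at least 10 CPM whose groups did not overlap in any medium, so their separation was a condition of the choice. Of the 24, 21 kept the call without any 1 library and 12 without the 4 libraries of any 1 medium.

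**Figure D1:**
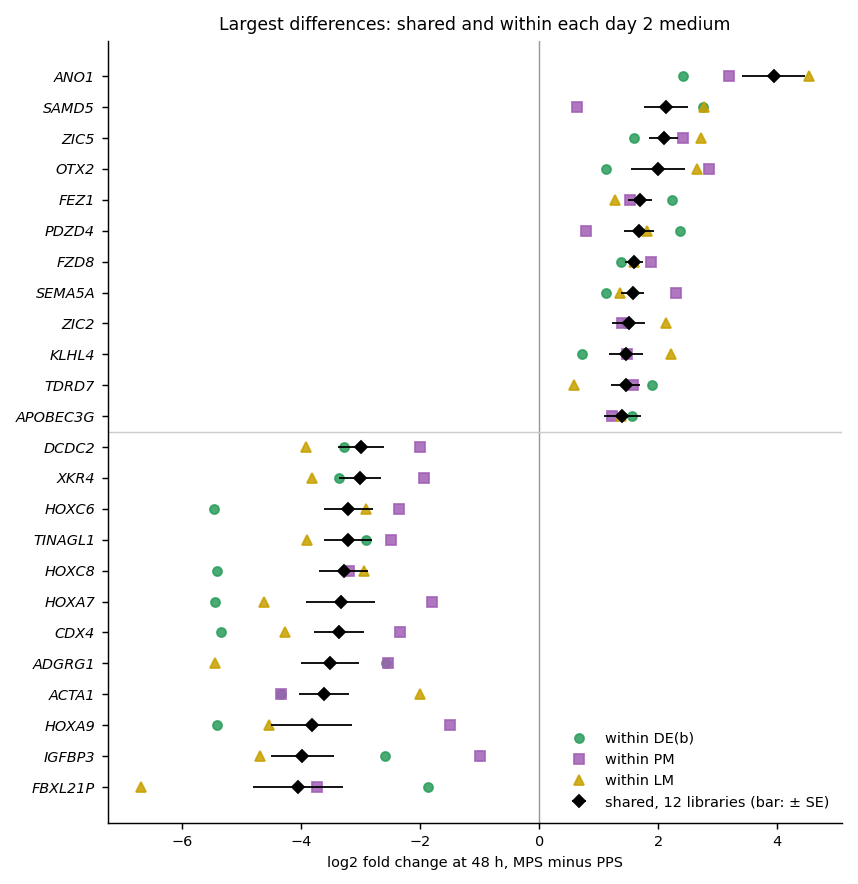
Log2 fold change at 48 h (MPS minus PPS, horizontal axis) of the 12 genes with the largest higher and the 12 with the largest lower level after MPS, shown as the shared estimate from 12 libraries (black diamond, bar ± SE) and within each day 2 medium (colored symbols). Shared values run from 3.94 for ANO1 to 1.39 for APOBEC3G and from -2.99 for DCDC2 to -4.05 for FBXL21P, and the PM symbol is the one nearest to 0 for 9 of the 12 lower genes.

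Epithelial genes were lower after MPS, in each of the 3 media. Of 40 genes of epithelial junctions and their regulators, all tested, 18 were lower and 0 higher after MPS (background 1.94% lower), with a median log2 fold change of -1.22 over the 40 against -0.0057 over all genes. Without the filter on low counts, with a replicate term or with DESeq2 the count stayed within 1.5 times of 18. In 22 of the 40 both MPS libraries were below both PPS libraries in each medium (3.19% of all genes). Leaving out any 1 library kept 14 of the 18, and CGN, EPPK1, MARVELD2 and MARVELD3 each lost the call in at least 1 leave-out (highest adjusted p 0.0714, 0.0692, 0.0529 and 0.114). With the replicate number as a block the MARVELD3 shared log2 fold change had an adjusted p of 0.0551. Leaving out all 4 libraries of any 1 medium kept 11 of the 18. Within single media 12 (3.25% of all genes were lower), 10 (0.676%) and 29 (3.86%) of the 40 were lower in DE(b), PM and LM, and none was higher.

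CDH1, which encodes E-cadherin (chr16:68737292-68835537, plus strand, GRCh38), was at 19.1 and 13.3 CPM in MPS-DE(b) and 105 and 94.8 CPM in PPS-DE(b). In PM medium it was at 17.3 and 18.8 CPM after MPS and 99.5 and 110.4 CPM after PPS, and in LM medium at 46.3 and 67.4 against 616 and 763 CPM. The groups were apart in each medium, and only PPS-LM stayed above the control (303 and 299 CPM). The shared log2 fold change was -2.94 ± 0.20 (SE), adjusted p = 3.93e-05, a 7.65-fold difference, and at 24 h it had been -1.26 ± 0.26 (SE), adjusted p = 0.00455, from 264 and 362 CPM after MPS against 717 and 861 CPM after PPS. The call held without any 1 of the 12 libraries (adjusted p at most 0.000347). CDH3, the P-cadherin gene beside it (chr16:68636189-68727468, plus strand), was at 14 to 35.2 CPM in the 6 MPS libraries and 44.6 to 121 CPM in the 6 PPS libraries (log2 fold change -1.64 ± 0.13 (SE), adjusted p = 0.000123).

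The surface protease ST14 (matriptase) differed most in the list. It was at 0.451 to 1.21 CPM in the 6 MPS libraries and 6.4 to 11.1 CPM in the 6 PPS libraries, a gap without overlap across media (log2 fold change -3.60 ± 0.29 (SE), adjusted p = 0.000118). Its inhibitors SPINT1 and SPINT2 were lower as well, by smaller amounts (log2 fold changes -1.15 and -0.72, adjusted p 0.00539 and 0.0161). EPCAM, the epithelial cell adhesion molecule, was at 19.7 to 53.3 CPM after MPS and 66.3 to 343 CPM after PPS (log2 fold change -1.96 ± 0.22 (SE), adjusted p = 0.000991). Among the 18 lower genes were the regulators GRHL2 and ESRP1. GRHL2, a transcription factor that activates epithelial genes, was at 3.57 and 3.56 CPM in MPS-LM and 32.1 and 55.9 CPM in PPS-LM, and its shared log2 fold change was -2.89 ± 0.30 (SE), adjusted p = 0.000644. ESRP1, which sets epithelial splicing, was at 17.7 and 17.8 CPM in MPS-DE(b) against 37.5 and 42.2 CPM in PPS-DE(b), 7.38 and 8.66 against 29.4 and 41.7 CPM in PM and 3.23 and 4.62 against 39 and 56.2 CPM in LM (shared log2 fold change -2.27 ± 0.34 (SE), adjusted p = 0.0048). The size of the ESRP1 difference depended on the medium (interaction adjusted p = 0.00269). Of the claudins, CLDN4 was 4.51-fold lower (adjusted p = 0.000398) and CLDN7 3.27-fold lower (adjusted p = 0.00475). Of the keratin genes of simple epithelia, KRT8 and KRT19 did not pass the test (log2 fold changes -0.13 ± 0.09 (SE), adjusted p = 0.507, and -0.41 ± 0.11 (SE), adjusted p = 0.0647), whereas KRT7, counted with the amnion markers, was lower (log2 fold change -3.40 ± 0.69 (SE), adjusted p = 0.0243).

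**Figure D2:**
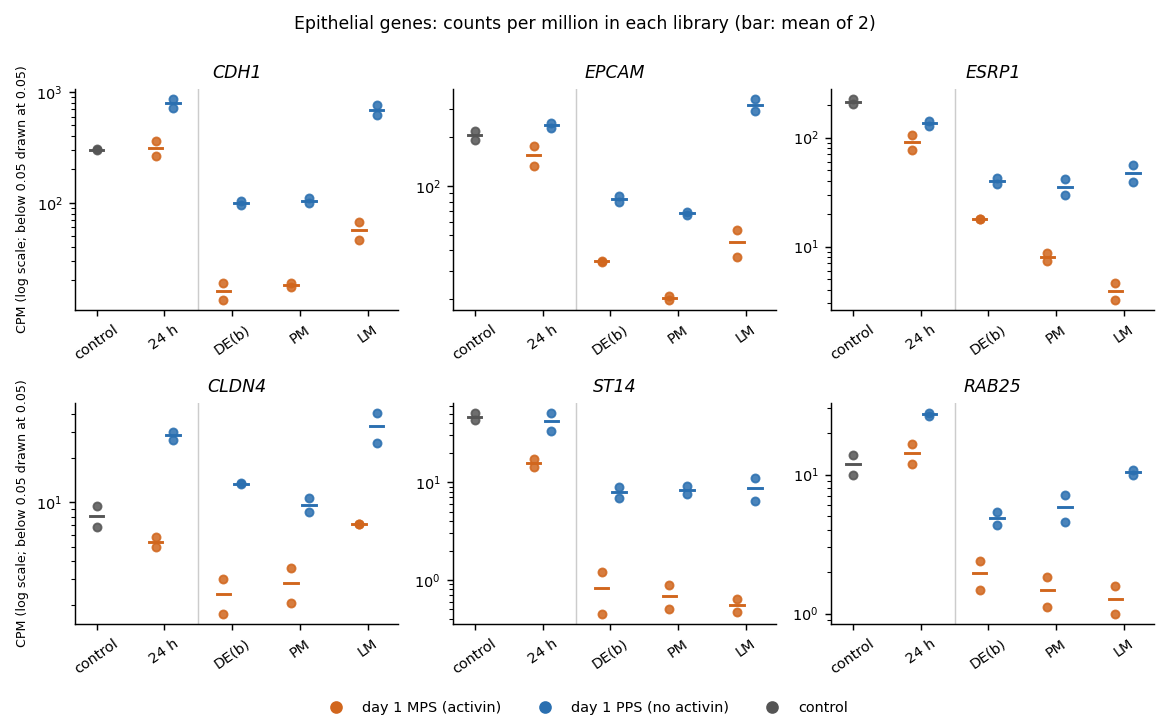
CPM on a log axis of 6 epithelial genes in the 2 control libraries, at 24 h and in the 3 media at 48 h, with a point for each library and a bar for the mean of 2. In each medium both libraries with day 1 MPS (orange) lie below both with day 1 PPS (blue) for all 6 genes.

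Promoters of these genes were read for the E-box CAGGTG, a sequence that SNAI and ZEB repressors can bind, on both strands. The RefSeq table used (GRCh38.p14, from 250 bases before to 50 bases after the start) held 7 of the 18 epithelial genes that were lower after MPS, and CDH1 was among those it did not hold. The motif was in 2 of the 7, against 20.6% of all 27305 promoters in the table and 18.8% of the 12272 promoters of genes tested, and in 26.1% of the 249 promoters of lower genes and 16.0% of the 150 promoters of higher genes that matched. The 2 promoters are shown because they held the motif, which is in capitals as it reads on the printed strand. Both genes were lower after MPS in each medium. The promoter of CLDN4, also lower in each medium, did not hold the motif. RAB25, a GTPase of apical recycling endosomes, had 0.996 to 2.41 CPM after MPS and 4.31 to 10.8 CPM after PPS (log2 fold change -2.12 ± 0.30 (SE), adjusted p = 0.00425). AP1M2, the epithelial form of a clathrin adaptor subunit, had 4.48 to 6.46 and 12.2 to 20.7 CPM (log2 fold change -1.61 ± 0.16 (SE), adjusted p = 0.00046). RAB25 held 2 copies and AP1M2 held 3. Matches to 5 other motifs were also counted in the promoters of the 249 lower genes, of the 12272 genes tested and of all genes in the table. The FOXH1 motif AATNNACA was in 5.22%, 5.74% and 11.1% of them in that order, and the SMAD motif CAGAC in 36.9%, 43.5% and 45.0%. The T-box motif AGGTGT, which can overlap the E-box, was in 8.03%, 9.28% and 11.4%, the GRHL motif AACNGGTT in 2.41%, 1.46% and 1.73%, and AGATAA, the motif of the GATA factors, in 3.21%, 5.65% and 10.5%. A match of letters is a description and not evidence of binding.
RAB25 promoter (chr1:156060910-156061209, plus strand): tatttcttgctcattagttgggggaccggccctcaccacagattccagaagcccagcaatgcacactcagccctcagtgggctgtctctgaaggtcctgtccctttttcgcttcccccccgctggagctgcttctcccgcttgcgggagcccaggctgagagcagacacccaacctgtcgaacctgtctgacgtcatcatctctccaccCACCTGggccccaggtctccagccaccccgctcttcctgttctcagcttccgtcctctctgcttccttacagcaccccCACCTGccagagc
AP1M2 promoter (chr19:10587263-10587562, minus strand): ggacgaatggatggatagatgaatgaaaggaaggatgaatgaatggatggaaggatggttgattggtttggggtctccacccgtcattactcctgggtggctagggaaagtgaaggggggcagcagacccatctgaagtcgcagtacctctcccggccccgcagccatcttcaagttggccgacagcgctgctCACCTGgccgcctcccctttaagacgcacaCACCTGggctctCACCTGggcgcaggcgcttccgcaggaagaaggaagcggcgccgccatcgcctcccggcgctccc

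Mesenchymal genes showed no common direction at 48 h, unlike at 24 h. Of 26 tested, 1 was higher (1.16% of all genes) and 2 were lower (1.94%) after MPS in the shared fit, and the median log2 fold change was -0.0775. At 24 h 11 of the 26 had been higher (3.35% of all genes) and 0 lower, with a median log2 fold change of 0.63. The repressors of CDH1 had been higher after MPS at 24 h. ZEB2 was then at 61.9 and 38.8 CPM after MPS and 15.3 and 8.26 CPM after PPS (log2 fold change 2.16 ± 0.40 (SE), adjusted p = 0.00161), and ZEB1 at 5.21 and 2.8 against 1.38 and 0.903 CPM (log2 fold change 1.87 ± 0.30 (SE), adjusted p = 0.000569). At 48 h their shared log2 fold changes were -0.34 ± 0.22 (SE) (adjusted p = 0.475) and 0.07 ± 0.10 (SE) (adjusted p = 0.788). SNAI1 changed sides. It was at 134 and 112 CPM after MPS and 64.9 and 40.3 CPM after PPS at 24 h (log2 fold change 1.30 ± 0.24 (SE), adjusted p = 0.00157), whereas at 48 h it was at 23.6 and 26 against 49.9 and 44.8 CPM in DE(b) and 14.9 and 17.4 against 32.2 and 32.5 CPM in LM. In PM the SNAI1 libraries overlapped (70.6 and 91.1 against 77 and 97.5 CPM). The shared log2 fold change of SNAI1 was -0.68 ± 0.16 (SE), adjusted p = 0.0388, and that call was lost on leaving out any 1 library other than MPS-PM replicate 2 or PPS-PM replicate 1 (adjusted p over the 12 leave-outs 0.0101 to 0.1). Within DE(b) 7 of the 26 were lower (3.25% of all genes) and 0 higher, within PM 0 were called, and within LM 7 were higher (1.74%) and 2 lower (3.86%). VIM (vimentin) was higher after MPS in LM, at 2059 and 2138 against 695 and 532 CPM (log2 fold change 1.79 ± 0.33 (SE), adjusted p = 0.0014), with a shared log2 fold change of 0.85 ± 0.21 (SE) (adjusted p = 0.0568). CDH2, which encodes N-cadherin, had a shared log2 fold change of -0.12 ± 0.10 (SE) (adjusted p = 0.609), with 137 and 188 CPM in MPS-LM and 235 and 204 CPM in PPS-LM. The collagen gene COL1A2, the member that was higher after MPS (log2 fold change 0.81 ± 0.20 (SE), adjusted p = 0.0482), ranged from 338 to 1365 CPM after MPS and 131 to 781 CPM after PPS, and its call was lost on leaving out any 1 library other than MPS-DE(b) replicate 2 or PPS-DE(b) replicate 1 (adjusted p over the 12 leave-outs 0.0299 to 0.105).

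Some single genes with roles in adhesion, the matrix or actin fibers were also lower after MPS. They were grouped after their values were seen, and no list of such genes was counted. Of these genes, TGFBI was also counted with the amnion markers. TGFBI, an extracellular matrix protein, was at 4.82 and 5.48 CPM in MPS-DE(b) and 23.8 and 23.8 CPM in PPS-DE(b). In PM it was at 13.5 and 18.7 against 82.2 and 100.0 CPM and in LM at 10.6 and 14.2 against 71.3 and 96.7 CPM. The groups were apart in each medium (shared log2 fold change -2.51 ± 0.15 (SE), adjusted p = 1.26e-05). TGFBI was already lower at 24 h (log2 fold change -1.58 ± 0.32 (SE), adjusted p = 0.00409). ITGB8, an integrin subunit that binds latent TGFβ, was at 13.6 to 59.8 CPM after MPS and 56 to 143 CPM after PPS. These ranges overlapped across media but not within any of them (log2 fold change -1.46 ± 0.14 (SE), adjusted p = 0.000409).

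ACTA1, the skeletal muscle form of alpha actin, was at 5.61 and 3.48 CPM in MPS-DE(b) against 114 and 67 CPM in PPS-DE(b), 1.77 and 0.836 against 33 and 19 CPM in PM and 2.25 and 1.61 against 6.75 and 8.82 CPM in LM. The difference was smallest in LM (interaction adjusted p = 0.0477), and the shared log2 fold change was -3.62 ± 0.42 (SE), adjusted p = 0.00138. At 24 h the groups overlapped (16.1 and 9.41 against 16.4 and 9.32 CPM). The actin-associated LIM protein gene CSRP1 was 3.76-fold lower (log2 fold change -1.91 ± 0.14 (SE), adjusted p = 5.31e-05) and the tropomyosin gene TPM1 2.07-fold lower (log2 fold change -1.05 ± 0.13 (SE), adjusted p = 0.00232), and their log2 fold changes at 24 h were 0.36 (adjusted p = 0.61) and 0.05 (adjusted p = 0.919). PRKG1, a cGMP-dependent kinase of smooth muscle, was lower at both times (log2 fold changes -1.56 at 24 h, adjusted p = 0.000569, and -1.71 at 48 h, adjusted p = 5.83e-05). NEDD9, a focal adhesion scaffold, was lower at 48 h (log2 fold change -1.74 ± 0.21 (SE), adjusted p = 0.00159) after 129.9 and 107 against 88.6 and 39.1 CPM at 24 h. ADGRG1, an adhesion receptor that couples to G proteins, was 11.4-fold lower, with 0.465 and 0.664 CPM in MPS-LM against 17.1 and 33.5 CPM in PPS-LM (shared log2 fold change -3.51 ± 0.49 (SE), adjusted p = 0.00384). TINAGL1, a basement membrane protein, was at 0.111 to 1.8 CPM after MPS and 0.714 to 33 CPM after PPS (log2 fold change -3.22 ± 0.41 (SE), adjusted p = 0.00212). The calls of these genes held without any 1 of the 12 libraries.

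HOX genes formed the other large group that was lower after MPS. Of 37 tested, 11 were lower and 0 higher (background 1.94% lower), and the median log2 fold change was -2.26. The count moved to 22 without the filter on low counts, 19 in a fit over all 34 libraries and 23 with DESeq2. The 11 were HOXA3, HOXA6, HOXA7, HOXA9, HOXA10, HOXB9, HOXC4, HOXC6, HOXC8, HOXC10 and HOXD4, and 8 of them were also called, in the same direction, at 24 h. HOXA10, HOXB9 and HOXC10 lost the call in at least 1 leave-out (highest adjusted p 0.1, 0.0722 and 0.097), and with the replicate number as a block the HOXA10 shared log2 fold change had an adjusted p of 0.0527. Leaving out all 4 libraries of any 1 medium kept only 2 of the 11, HOXC6 and HOXC8. Within media 21 were lower in DE(b) (3.25% of all genes), 15 in LM (3.86%) and 1 (HOXC8) in PM (0.676%), and no HOX gene was higher in any.

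HOXC8 (chr12:54008985-54012769, plus strand, GRCh38) was at 0 and 0.129 CPM in MPS-DE(b) and 3.46 and 2.25 CPM in PPS-DE(b), which puts it at least 15.3-fold higher after PPS against a floor of 3 counts per library. It was at 1.33 and 1 against 15.1 and 6.26 CPM in PM and 5.09 and 16.2 against 76.6 and 91.9 CPM in LM. The shared log2 fold change was -3.29 ± 0.41 (SE), adjusted p = 0.00183, and the call held without any 1 of the 12 libraries (adjusted p at most 0.00667). At 24 h HOXC8 had no count in either MPS library and 2.87 and 2.54 CPM after PPS, at least 19.6-fold higher. HOXC6 was at 5.38 and 12 CPM in MPS-LM and 60.3 and 72.8 CPM in PPS-LM (shared log2 fold change -3.21 ± 0.42 (SE), adjusted p = 0.00247). HOXA9 was at 0.261 and 1.1 against 33.9 and 21.6 CPM in DE(b), 2.59 and 1.28 against 7.6 and 3.24 CPM in PM and 0.997 and 5.51 against 81.9 and 75.3 CPM in LM (shared log2 fold change -3.83 ± 0.68 (SE), adjusted p = 0.013). HOXA7 showed the same order, with its highest levels in PM (25 and 65 against 160.1 and 156 CPM, shared log2 fold change -3.34 ± 0.58 (SE), adjusted p = 0.0114).

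**Figure D3:**
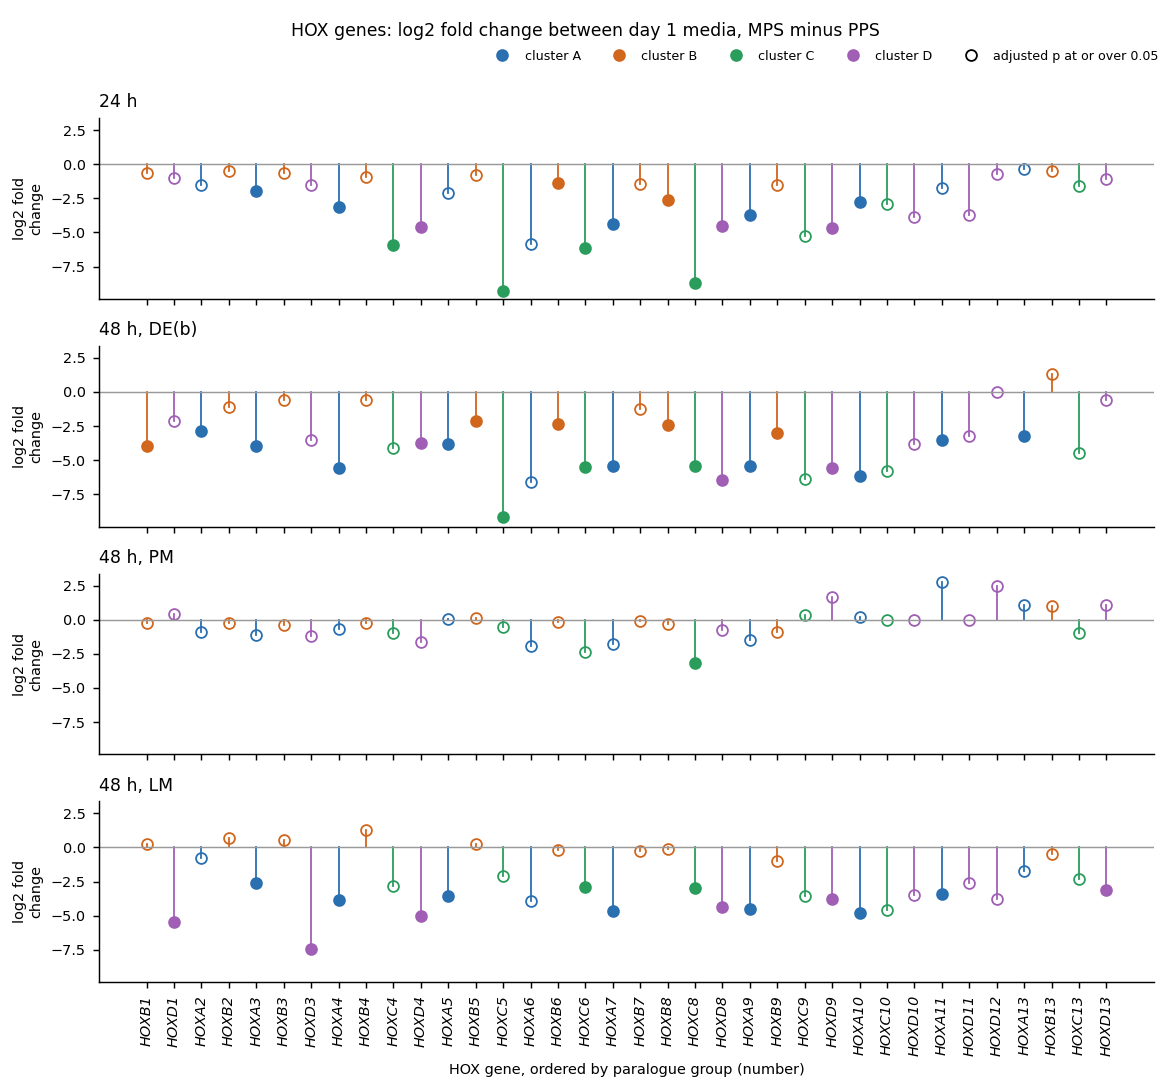
Log2 fold change (MPS minus PPS, vertical axis) of 36 of the 37 HOX genes tested, ordered by paralogue group, at 24 h and in each medium at 48 h, with filled points for an adjusted p under 0.05. Filled points lie below 0 in all 4 panels, 14 at 24 h, 15 in LM, 20 in DE(b) and 1 in PM, and fits of genes with no count in 1 group depend on the prior count.

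CDX4, which acts upstream of HOX genes in the posterior embryo, was lower after MPS in each medium. It was at 0.181 and 0 CPM in MPS-DE(b) against 5.19 and 2.67 CPM in PPS-DE(b), 27.9 and 32.2 against 181 and 125 CPM in PM and 0.582 and 1.95 against 26.4 and 24.8 CPM in LM. The shared log2 fold change was -3.36 ± 0.42 (SE), adjusted p = 0.00195, after -3.43 ± 0.54 (SE) at 24 h (adjusted p = 0.000402). CDX1 and CDX2 were not called in the shared fit (log2 fold changes -1.78 ± 0.54 (SE), adjusted p = 0.107, and -1.18 ± 0.50 (SE), adjusted p = 0.241). Both were lower after MPS in DE(b) (CDX2 at 1.08 and 0.644 against 17.4 and 10.01 CPM) and not in PM (179 and 243 against 171 and 190.4 CPM), with interaction adjusted p of 0.000273 for CDX1 and 0.0038 for CDX2. Of the 11 CDX, MEIS and PBX genes tested, CDX4 was the 1 called.

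Of 14 WNT ligand genes tested 3 were lower (background 1.94%) and 0 higher, with a median log2 fold change of -0.786, and each of the 3 lost the call without the 4 libraries of at least 1 medium. WNT5A, a ligand of the non-canonical pathway, was at 99.6 and 99.2 CPM in MPS-DE(b) and 860.1 and 687 CPM in PPS-DE(b), 158 and 169 against 706 and 732 CPM in LM and 702 and 379 against 1133 and 749.5 CPM in PM. The groups were apart in each medium, by amounts that differed (interaction adjusted p = 0.00365), and the shared log2 fold change was -1.98 ± 0.32 (SE), adjusted p = 0.00747. At 24 h WNT5A overlapped between groups (908 and 749 against 910.2 and 577 CPM). WNT3A, which maintains posterior progenitors, was lower at both times (log2 fold changes -2.59 ± 0.36 (SE), adjusted p = 0.000105, and -1.40 ± 0.21 (SE), adjusted p = 0.00545 at 48 h), and WNT8A at 48 h (log2 fold change -2.49 ± 0.39 (SE), adjusted p = 0.00617). In PM, where it was highest, WNT3A was at 29.2 and 35.4 CPM after MPS and 66 and 59.6 CPM after PPS.

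Of 15 FGF ligand genes tested FGF1, FGF2 and FGF4 were lower (background 1.94%) and 0 higher in the shared fit, while in LM 3 were higher (1.74%) and 3 lower (3.86%). Each of the 3 shared calls was lost without the 4 libraries of at least 1 medium. The FGF1 call was also lost in 9 of the 12 leave-outs of 1 library. FGF4, a streak ligand, was at 1.39 and 1.03 CPM in MPS-DE(b) against 30.2 and 15.5 CPM in PPS-DE(b) and 6.81 and 6.68 against 51.7 and 84.6 CPM in PM, but 2.8 and 3.66 against 5.42 and 5.53 CPM in LM. Its shared log2 fold change was -2.79 ± 0.51 (SE), adjusted p = 0.0153 and the media differed (interaction adjusted p = 0.00108). At 24 h FGF4 was at 96.2 and 167 CPM after MPS and 121 and 154 CPM after PPS. JAG1, a Notch ligand, was at 19.7 to 86.8 CPM after MPS and 100.3 to 142 CPM after PPS. It was lower in each medium, least so in PM (shared log2 fold change -1.59 ± 0.27 (SE), adjusted p = 0.0109, interaction adjusted p = 6.88e-05). TBXT (brachyury), the streak transcription factor, was at 11.1 and 13.7 CPM in MPS-DE(b) and 108 and 85.6 CPM in PPS-DE(b), with 170.4 and 350.2 against 402 and 557 CPM in PM. Its shared log2 fold change was -1.79 ± 0.40 (SE), adjusted p = 0.0353, and the call was lost on leaving out any 1 library other than MPS-PM replicate 2, PPS-PM replicate 1, MPS-LM replicate 2 or PPS-LM replicate 1 (adjusted p over the 12 leave-outs 0.00803 to 0.101). TBX6 was lower in DE(b) (log2 fold change -2.50 ± 0.26 (SE), adjusted p = 6.54e-06) and not in PM (log2 fold change -0.28, adjusted p = 0.74), with an interaction adjusted p of 0.000579. Of the 27 streak and presomitic genes tested, 3 were lower in the shared fit (background 1.94%), and 13 were lower (3.25%) and 1 higher (2.68%) in DE(b).

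Genes higher after MPS were fewer and included anterior markers. Of 9 neural and epiblast markers tested, ZIC2 and ZIC5 were higher (background 1.16%) and none lower. ZIC5 was at 44.5 and 39.6 CPM in MPS-DE(b) against 8.78 and 18.5 CPM in PPS-DE(b), 11.7 and 12.7 against 2.12 and 2.43 CPM in PM and 1.28 and 0.903 against 0.105 and 0.219 CPM in LM. The groups were apart in each medium, as naming by size required, and the levels fell short of the control (100.5 and 94.9 CPM). The shared log2 fold change was 2.09 ± 0.25 (SE), adjusted p = 0.00147, after 3.02 ± 0.31 (SE) at 24 h (adjusted p = 3.45e-06). ZIC2 was at 211 and 212 against 51.2 and 98.7 CPM in DE(b), and its shared log2 fold change was 1.505 ± 0.28 (SE), adjusted p = 0.0157. OTX2, a homeobox gene of the epiblast, head and anterior endoderm, was at 194 and 174 against 71.1 and 94.1 CPM in DE(b), 12.3 and 7.59 against 2.47 and 0.19 CPM in PM and 6.64 and 1.66 against 0.788 and 0.492 CPM in LM. Its shared log2 fold change was 1.998 ± 0.46 (SE), adjusted p = 0.0382, and the call was lost on leaving out any 1 library other than MPS-DE(b) replicate 2, PPS-DE(b) replicate 2, PPS-PM replicate 2 or MPS-LM replicate 2 (adjusted p over the 12 leave-outs 0.0288 to 0.0837). At 24 h OTX2 was at 19.6 and 14.2 CPM after MPS and 0.642 and 0.722 CPM after PPS.

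FZD8, a WNT receptor gene of anterior endoderm, was at 126 and 177 against 43.6 and 69.8 CPM in DE(b), 8.33 and 8.04 against 2.72 and 1.67 CPM in PM and 94.5 and 93.5 against 32.9 and 30.2 CPM in LM, a 3.01-fold difference (log2 fold change 1.59 ± 0.15 (SE), adjusted p = 0.000398, within media 1.38, 1.88 and 1.59). SEMA5A, a semaphorin guidance cue, was at 34.3 to 218 CPM after MPS and 6.23 to 101 CPM after PPS (log2 fold change 1.57 ± 0.19 (SE), adjusted p = 0.00181). It was apart within each medium, as naming by size required. ANO1, a calcium-activated chloride channel, had the largest value of the genes named by size (log2 fold change 3.94 ± 0.54 (SE), adjusted p = 0.00349) and had most of its counts in LM, with 33.6 and 28.1 CPM in MPS-LM against 1.37 and 1.31 CPM in PPS-LM and at most 1.2 CPM elsewhere. Without the 4 LM libraries its adjusted p was 0.235. FEZ1, a gene of neurite outgrowth (log2 fold change 1.69 ± 0.21 (SE), adjusted p = 0.00181), PDZD4 (1.67 ± 0.26 (SE), adjusted p = 0.00617), SAMD5 (2.12 ± 0.37 (SE), adjusted p = 0.0124) and TDRD7 (1.45 ± 0.24 (SE), adjusted p = 0.0101) were higher in the same way and had their highest levels in DE(b). KLHL4 (log2 fold change 1.46 ± 0.28 (SE), adjusted p = 0.0197) lost its call without PPS-LM replicate 1 (adjusted p 0.0539). The APOBEC3G call (log2 fold change 1.39 ± 0.31 (SE), adjusted p = 0.0362) was lost on leaving out any 1 library other than PPS-PM replicate 1, PPS-PM replicate 2 or MPS-LM replicate 2 (adjusted p over the 12 leave-outs 0.0159 to 0.0943). Its reads could be split with other genes of its family, among them APOBEC3C (log2 fold change 0.97 ± 0.10 (SE), adjusted p = 0.000633). DUSP4, a phosphatase that limits ERK signaling, was at 337 and 375 against 101 and 122 CPM in DE(b) (shared log2 fold change 1.15 ± 0.20 (SE), adjusted p = 0.0129) and was the 1 of 18 FGF and ERK response genes called.

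**Figure D4:**
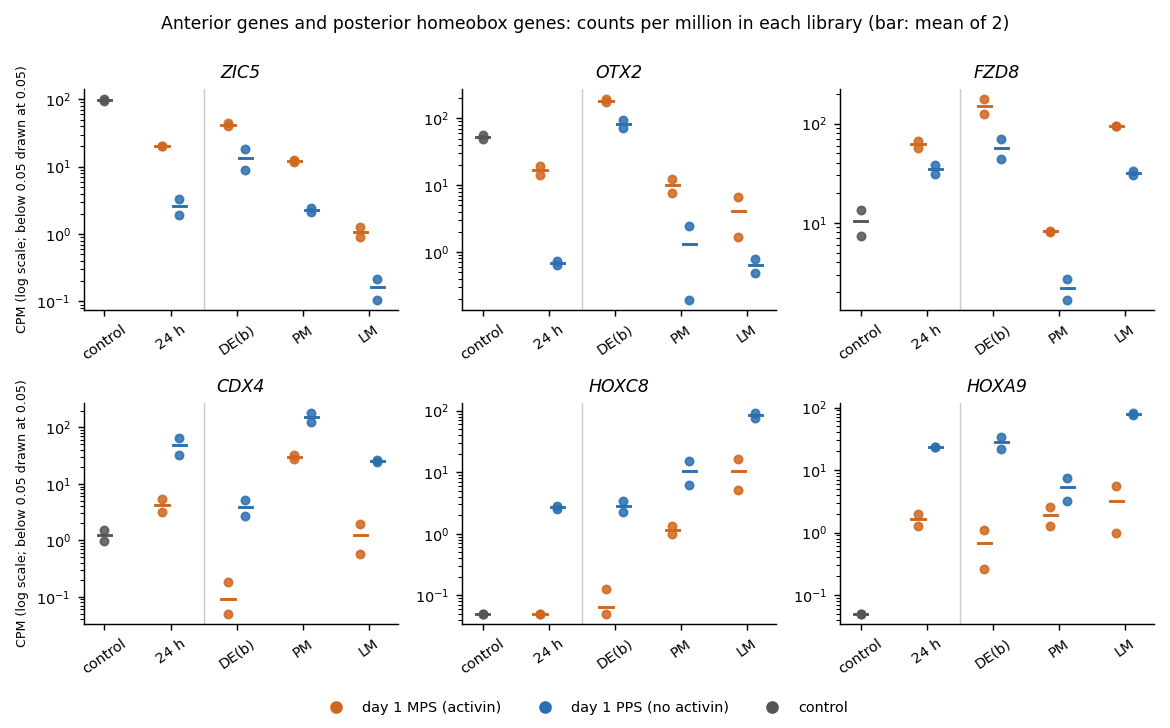
CPM on a log axis of 3 anterior genes and 3 posterior homeobox genes in the 2 control libraries, at 24 h and in the 3 media at 48 h, with a point for each library and a bar for the mean of 2. In each medium both MPS libraries (orange) lie above both PPS libraries (blue) for ZIC5, OTX2 and FZD8 and below both for CDX4, HOXC8 and HOXA9. This separation was a condition for naming genes by size, so it is no separate result.

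LEFTY1 was the 1 gene that edgeR called in the shared fit among the lists of activin and Nodal pathway genes. Of 13 ligand and inhibitor genes tested 1 (LEFTY1) was higher (1.16% of all genes) and 0 lower. Of 11 receptor and SMAD genes 0 were called by edgeR, with 1 gene at an unadjusted p under 0.05. DESeq2 called 1 of the 11 higher and the fit over all 34 libraries 1 lower. Of 15 response genes 1 (again LEFTY1) was higher. At 24 h 5 of the 13, 3 of the 11 and 9 of the 15 had been higher after MPS and 0 lower (3.35% of all genes were higher). LEFTY1, a Nodal inhibitor, was at 226 and 314 CPM in MPS-DE(b) and 55.8 and 88.9 CPM in PPS-DE(b), and at most 0.0631 CPM in PM and LM, where the pathway was inhibited. Its shared log2 fold change (1.87 ± 0.25 (SE), adjusted p = 0.00297) therefore rested on DE(b), and without the 4 DE(b) libraries its adjusted p was 0.579. NODAL went from higher after MPS at 24 h (117 and 144 against 24.7 and 45.9 CPM, log2 fold change 1.96 ± 0.36 (SE), adjusted p = 0.00158) to 126 and 114 against 269.9 and 218 CPM in DE(b), where both MPS libraries were the lower ones and the test was not passed (log2 fold change -1.06 ± 0.35 (SE), adjusted p = 0.0793). CER1, a secreted Nodal and BMP inhibitor of endoderm, was at 156 and 49.4 CPM after MPS at 24 h and at most 0.346 CPM after PPS (log2 fold change 9.13 ± 0.95 (SE), adjusted p = 8.42e-06). In DE(b) it reached 6006 and 5343 CPM after MPS and 3329 and 3856 CPM after PPS (log2 fold change 0.62 ± 0.54 (SE), adjusted p = 0.637). GSC, an organizer gene, was higher after MPS in DE(b) (56.2 and 60.5 against 23.1 and 32.9 CPM) and PM (2.46 and 1.62 against 0.216 and 0 CPM), with an interaction adjusted p of 0.0276.

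RNA of SOX17, FOXA2 and EOMES was detected in DE(b) after both day 1 media, with FOXA2 low after PPS. Detection of this RNA does not show that endoderm formed. From staining and RNA, the paper concludes that cells of the mid to posterior streak lost the potential for endoderm. Levels after the standard endoderm protocol were not compared here. SOX17 was at 391 and 553 CPM in MPS-DE(b) and 113 and 224 CPM in PPS-DE(b) (log2 fold change within DE(b) 1.45 ± 0.88 (SE), adjusted p = 0.43), and FOXA2 at 17.1 and 37.8 against 2.17 and 11 CPM (2.04 ± 0.86 (SE), adjusted p = 0.199). EOMES was at 606 and 562 against 368 and 412 CPM (0.55 ± 0.56 (SE), adjusted p = 0.7). Both MPS libraries were above both PPS libraries for the 3 genes, and none of the 3 passed the test within DE(b). In the shared fit the SOX17 shared log2 fold change was 1.41 (adjusted p = 0.0606) and the FOXA2 shared log2 fold change 2.28 (adjusted p = 0.0971), and with the replicate number as a block both were called, at 1.48 (adjusted p = 0.0145) and 2.48 (adjusted p = 0.0394). SOX17 was nearly absent in PM and LM, so its shared value rested on DE(b), where it was not called. Without the DE(b) libraries the sign of the SOX17 value turned. Of 24 organizer and endoderm genes tested 5 were higher and 0 lower within DE(b) (2.68% of all genes were higher), and OTX2 and FZD8 were the 2 higher in the shared fit (1.16%), a count that was 4 with the replicate block.

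Amnion markers were lower after MPS, above all in number in LM. Of 19 amnion markers tested 6 were lower after MPS in the shared fit (background 1.94%) and 0 higher, and within LM 11 were lower (3.86% of all genes). The 6 were TFAP2A, TFAP2B, DLX5, IGFBP3, KRT7 and TGFBI. Leaving out all 4 libraries of any 1 medium kept 2 of the 6, TFAP2A and TGFBI. Without the 4 LM libraries the shared adjusted p of IGFBP3 was 0.236. The summed level of the amnion markers was 1025 to 1027 CPM in MPS-LM and 2049 to 2113 CPM in PPS-LM, against 219 to 286 and 541 to 702 CPM in DE(b) and 193 to 198 and 241 to 272 CPM in PM. The part of these markers in the epithelial differences was not tested. Within PM 2 of the 19 markers were lower after MPS (0.676% of all genes) and 0 higher. In that medium TFAP2A was at 2.27 and 1.17 CPM after MPS and 7.14 and 3.76 CPM after PPS. GATA3 was at 5.86 and 4.77 against 4.98 and 3.53 CPM there. IGFBP3, a binding protein of insulin-like growth factors, was at 27.2 and 26.3 CPM in MPS-LM and 709 and 697 CPM in PPS-LM (log2 fold change within LM -4.70 ± 0.37 (SE), adjusted p = 6.91e-08), and at most 1.52 CPM in DE(b) and PM. At 24 h its order had been the opposite, 8.85 and 12.6 CPM after MPS against 2.13 and 1.38 CPM after PPS (log2 fold change 2.66 ± 0.40 (SE), adjusted p = 0.000237). TFAP2A, a factor of amnion and surface ectoderm, was lower after MPS at both times (30.6 and 35.4 against 113 and 167 CPM in LM, shared log2 fold change -1.97 ± 0.20 (SE), adjusted p = 0.00063). DLX5, KRT7 and TFAP2B, also lower, each lost the call in at least 1 leave-out (highest adjusted p 0.0986, 0.0734 and 0.161), and with the replicate number as a block the TFAP2B shared log2 fold change had an adjusted p of 0.0621. ISL1 was called within LM (10.8 and 27.5 against 75.1 and 94.8 CPM, log2 fold change -2.11 ± 0.59 (SE), adjusted p = 0.0346) and not in the shared fit (adjusted p = 0.0745). Of 18 blood and endothelium markers 0 were called by edgeR in the shared fit (5 at an unadjusted p under 0.05, 1 lower by DESeq2), of 13 primordial germ cell markers 1 (SOX15) was lower, and of 20 pluripotency genes 1 (FGF4) was lower.

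For some genes the day 1 effect had opposite signs in DE(b) and LM. The effect differed between the 3 media for 746 genes (4.17%, interaction test with 2 degrees of freedom), and this count was 403 without PPS-DE(b) replicate 1, 417 without MPS-DE(b) replicate 2 and 460 without PPS-LM replicate 2. The day 1 by medium interaction had 1162 genes with the replicate number as a block. Among the 746 were 3 of the 208 shared higher genes and 33 of the 348 shared lower genes (4.17% of all genes). The shared fit counted differences between media as spread and so disfavored such genes. This overlap therefore does not show that the shared effects were equal in the media. SFRP1, a secreted WNT inhibitor, was higher after MPS in DE(b) (283 and 314 against 71 and 69.3 CPM) and lower in LM (19.3 and 18.6 against 93.7 and 81.8 CPM), with 93.5 and 89.5 against 109.6 and 104 CPM in PM. MANEA, a mannosidase of the Golgi, had the same pattern (292 and 303 against 95.4 and 115 CPM in DE(b) and 21.7 and 28.9 against 94.8 and 95.6 CPM in LM), as did GADD45G, a stress-response gene (8.3 and 11.9 against 2.36 and 2.43 CPM in DE(b) and 6.4 and 6.23 against 61.7 and 43.1 CPM in LM). CXCL12, a chemokine, was called in LM and in neither of the other media, at 5.52 and 7.09 CPM after MPS and 158 and 259 CPM after PPS, and had differed in the same direction at 24 h (6.88 and 7.53 against 135 and 119 CPM).

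Most genes called at 24 h were not called in the shared fit a day later, and most genes called in that fit had not been called at 24 h. With 2 libraries a group at 24 h, a gene not called then was not shown to be unchanged. At 24 h 1098 genes (6.14%) were called, 599 (3.35%) higher and 499 (2.79%) lower after MPS, and this count was 266 without MPS-24h replicate 1 and 316 without PPS-24h replicate 2, and the effect at 24 h had 1717 genes with the replicate number as a block. Of the 599 genes, 41 (6.845%) were higher in the shared fit at 48 h (1.16% of all genes) and 10 (1.669%) were lower (1.94%). Of the 499 genes, 67 (13.43%) were lower at 48 h (1.94% of all genes) and 4 (0.8016%) were higher (1.16%). Seen from 48 h, the 41 genes were 19.71% of the 208 higher ones and the 67 were 19.25% of the 348 lower ones, while 163 (78.37%) and 271 (77.87%) had not been called at 24 h. The sign at 24 h was already the same for 142 of the 208 and 255 of the 348. Genes called at both times in the same direction included CDH1, CDH3, CLDN4, ST14, TGFBI, SEMA6A, PRKG1, CDX4 and HOXC8, all lower after MPS in each medium at 48 h, and ZIC5, SEMA5A, TMEM74B and SLC22A3, all higher. Of the 28 genes lower in each medium 11 had been called at 24 h in the same direction and none in the opposite one, and 17, among them EPCAM, ESRP1, ACTA1, CSRP1 and TPM1, had not been called.

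**Figure D5:**
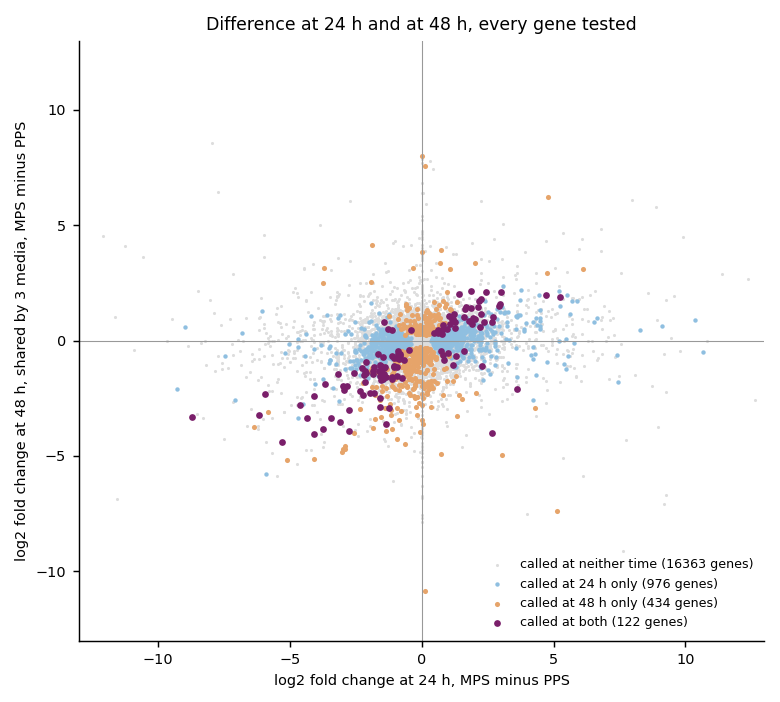
Log2 fold change (MPS minus PPS) of the 17895 genes tested, at 24 h (horizontal axis) and in the shared fit at 48 h (vertical axis). Points are colored by the times at which the gene was called. Of the genes called at either time, 976 were called at 24 h only, 434 at 48 h only and 122 at both, and the 122 lie mostly in the lower left and upper right corners.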

How the data were processed

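RNA was sequenced from ESI017 cells with a stranded poly(A) library kit (NEBNext Ultra II Directional) as paired-end reads, and the authors deposited estimated counts per gene made with Salmon 1.10.2 and R 4.4.2 on GRCh38. Where a symbol had more than 1 identifier, the one with the most counts was used. The members and gene lists were chosen with earlier results of these data known.

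Estimated counts were rounded, genes with low counts were removed with the edgeR filter (17895 of 37951 kept), and libraries were scaled by TMM. The shared effect was fitted on the 12 libraries of 48 h with terms for day 2 medium and day 1 medium (8 residual degrees of freedom), and effects within a medium, at 24 h and the interaction on 34 libraries with 1 mean per condition (17 residual degrees of freedom), using edgeR 4.0.16 quasi-likelihood tests with Benjamini-Hochberg adjustment over all genes. The 12 genes with the largest change in each direction were named among called genes that averaged at least 10 CPM in MPS or PPS and did not overlap in any medium, with 4 genes for the interaction and the members of the lists. Genes named after their values were seen were LAD1, CSRP1, NEDD9, PRKG1, ITGB8, TPM1 and the other genes called in each medium. A total of 3 counts per library served as the floor for bounds, which cover counting error only. The fits were tested on simulated data. Another normalization, no filter, a replicate term, other samples, DESeq2 1.42.0 and leaving out libraries or media were tried as alternatives. Gene positions are from GENCODE v44. Some genes are not reported here.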

Additional observations from a re-analysis of the deposited data

Results flagged for a closer look

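The effect of day 1 activin differed between DE(b), PM and LM for 22 of the genes named, by the interaction test (edgeR quasi-likelihood, Benjamini-Hochberg adjustment over all genes). Log2 fold changes within DE(b), PM and LM are given in that order for each gene, with its adjusted p.

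Effects of opposite sign in DE(b) and LM were seen for MANEA (1.46, -0.09 and -1.89, adjusted p = 1.05e-07), SFRP1 (2.05, -0.23 and -2.19, adjusted p = 1.05e-07) and GADD45G (2.04, 0.28 and -3.03, adjusted p = 1.19e-06). Posterior and streak genes with their largest difference in DE(b) were CDX1 (-4.26, -0.02 and -2.22, adjusted p = 0.000273), CDX2 (-4.01, 0.22 and -1.04, adjusted p = 0.0038), TBX6 (-2.50, -0.28 and -0.18, adjusted p = 0.000579) and WNT5A (-3.00, -0.81 and -2.12, adjusted p = 0.00365). HOXA10 (-6.17, 0.18 and -4.77, adjusted p = 0.0141), WNT5B (-3.46, -0.62 and -1.102, adjusted p = 0.00956), FGF4 (-4.27, -3.35 and -0.73, adjusted p = 0.00108) and GSC (1.02, 4.08 and 0.68, adjusted p = 0.0276) differed as well.

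Among epithelial genes the flagged members were ESRP1 (-1.20, -2.15 and -3.58, adjusted p = 0.00269), CGN (-0.44, -0.67 and -1.69, adjusted p = 0.0254) and PRSS8 (-0.30, -0.77 and -2.07, adjusted p = 0.00792). The remaining genes were CXCL12 (-0.10, -0.67 and -5.03, adjusted p = 4.57e-07), JAG1 (-1.73, -0.53 and -2.51, adjusted p = 6.88e-05), IGFBP3 (-2.59, -0.995 and -4.70, adjusted p = 0.0102), USP18 (-1.44, -2.15 and -4.74, adjusted p = 0.00522), ADGRG1 (-2.58, -2.54 and -5.44, adjusted p = 0.026), PDZD4 (2.36, 0.79 and 1.80, adjusted p = 0.0296), the collagen gene COL5A1 (-0.18, -0.16 and 1.58, adjusted p = 0.000221) and ACTA1 (-4.35, -4.34 and -1.9995, adjusted p = 0.0477). The causes of these differences were not tested.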

How the results depend on the processing

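The number of called genes depended on the processing, and the cause of these changes was not tested unless named. The count for the shared day 1 effect, 556, was 933 without a filter on low counts, 1364 with all 34 libraries in the fit, 1474 with DESeq2, 245 without the 4 DE(b) libraries, 258 without the 4 LM libraries and 283 where a fold change of at least 2 was also required, and 314 to 563 when 1 library was left out. All 556 genes kept their direction in each of 20 refits, which reused the same libraries and are no independent check. Without the filter the effect within DE(b) had 1713 genes, the effect within PM 825, the effect within LM 1560, the day 1 by medium interaction 1862 and the effect at 24 h 1876. With DESeq2 they were 419 in PM, 1579 for the interaction and 1675 at 24 h, and 814 genes were called without overlap in any medium. With only the libraries of the comparison in the fit, so that fewer samples set the spread, they were 1658 in DE(b), 42 in PM and 309 at 24 h. Requiring a 2-fold change gave 688 in DE(b), 678 at 24 h and 220 genes called without overlap in any medium. Leaving out 1 library gave 336 to 614 in DE(b), 79 to 239 in PM, 376 to 678 in LM, 403 to 876 for the interaction, 266 to 1437 at 24 h and 283 to 502 for calls without overlap. The lone library left in a group was then assumed to vary like the others. The 4 genes named for the interaction kept an adjusted p under 0.05 in the 17 alternatives run for them, which were added after the data were seen.

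The labels do not say what a replicate number shares. The 15 correlations between same-numbered deviations among the 6 conditions of 48 h ran from 0.0533 to 0.404 and 5 were under 0.1, while those between MPS and PPS of the same medium were 0.184 for DE(b), 0.404 for PM, 0.202 for LM and 0.302 at 24 h. These values do not settle whether the numbers pair the samples, and blocked values are given beside the results whose call they changed. With the replicate number as a block 628 genes were called for the shared day 1 effect, 1478 for the effect within DE(b), 315 for the effect within PM, 1305 for the effect within LM, 1162 for the day 1 by medium interaction and 1717 for the effect at 24 h. The block also took the number of higher genes in the shared fit from 0 to 1 among the CDX, MEIS and PBX genes and the primordial germ cell markers, and from 1 to 2 among the FGF and ERK response genes.

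Of the named genes that were not called, the sign turned for LEFTY2 (log2 fold change 0.0333) and SOX17 (-0.32) with all 34 libraries in the fit, for NODAL (0.25), LEFTY2 (0.48), SOX17 (-1.59) and ZEB2 (0.0969) without the DE(b) libraries, and for COL5A1 (-0.17), CDH2 (0.0201) and the ZEB1 shared log2 fold change (-0.0293) without the LM libraries. Each condition had 2 replicates of 1 cell line.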
